A study of Mus musculus with 24 samples.

Results

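Immediately after 6 h at 6% oxygen, a set of transcripts in the mouse retina stood on one side of the normoxic level, and 2 h into reoxygenation the same transcripts stood on the other side. These overshooting genes were selected on the measured values themselves, and the name stands for the change of sign alone, whichever group moved. A probe set, the group of short probes that measures a transcript on the array, was a member when its hypoxic group mean was at least 0.4 above the normoxic mean at 0 h and at least 0.25 below it at 2 h, or at least 0.4 below at 0 h and at least 0.25 above at 2 h. All values are log2 signals, so a difference of 1 is a 2-fold change. The probe set also had to carry 1 gene symbol and reach a group mean of 6.69 at 0 h or 2 h, the signal that separates low from clear signals on these arrays. The rule found 182 member probe sets of 146 genes among 17356 probe sets of 10271 genes with that signal, which is 1.05% of them. In 121 probe sets of 91 genes the hypoxic signal was higher at 0 h and lower at 2 h (higher-then-lower members), and in 61 probe sets of 55 genes it was lower at 0 h and higher at 2 h (lower-then-higher members). Because the 0 h and 2 h arrays chose the members, their differences at these time points are given as a description with no test, whereas the 4 h and 16 h arrays took no part in the choice.

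Retinas came from adult BALB/c mice, an albino strain, all homozygous for the light-sensitive Leu variant of Rpe65. Hypoxic mice were returned to room air in darkness, and their retinas were taken after 0 h, 2 h, 4 h or 16 h. Each time point had its own normoxic control retinas. This gave 8 groups of 3 arrays, and each of the 24 arrays held a pool of 3 retinas from 3 mice. Their age in weeks is not given in the sources used here. Whole retinas were measured, so fewer cells of a type and less RNA per cell cannot be told apart.

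Cells sense low oxygen through enzymes that hydroxylate and thereby destabilise the alpha subunits of the hypoxia-inducible factors (HIFs). In hypoxia these subunits accumulate and drive genes for glycolysis, oxygen delivery and the saving of energy, and on return to air they are destroyed within minutes. HIF binds DNA at a core written ACGTG or GCGTG, the hypoxia response element, and among its targets are hydroxylases that act in its own removal. Glucocorticoids, hormones released under stress, drive another set of genes through their own receptor.

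The list of HIF-1 targets held 38 genes, of which 32 had signal and 6 were members, all of them higher-then-lower. For 5 of these, Ankrd37, Ddit4, P4ha1, Pfkfb3 and Ak4, RefSeq (GRCm38.p6) gave a promoter, and the 250 bases before the most upstream start site are shown because these genes share the HIF core. Bhlhe40 is the other member of that list. Klf9 and Suv39h2 are shown beside them as the genes with the most member probe sets in either direction. Capitals mark the core in either orientation, and the windows lie at chr8:45999851-46000100 (minus strand), chr10:59951771-59952020 (minus), chr10:59323046-59323295 (plus), chr2:11553930-11554179 (minus), chr4:101419039-101419288 (plus), chr19:23140976-23141225 (plus) and chr2:3474987-3475236 (minus).
Ankrd37: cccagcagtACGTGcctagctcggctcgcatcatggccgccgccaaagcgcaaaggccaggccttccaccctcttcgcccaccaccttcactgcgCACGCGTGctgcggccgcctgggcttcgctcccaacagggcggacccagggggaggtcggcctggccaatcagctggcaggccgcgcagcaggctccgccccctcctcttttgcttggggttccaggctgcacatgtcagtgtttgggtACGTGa
Ddit4: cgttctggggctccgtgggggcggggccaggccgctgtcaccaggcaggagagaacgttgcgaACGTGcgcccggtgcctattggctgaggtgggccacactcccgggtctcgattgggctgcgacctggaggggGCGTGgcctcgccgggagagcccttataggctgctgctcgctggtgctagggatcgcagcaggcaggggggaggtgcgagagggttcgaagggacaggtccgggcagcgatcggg
P4ha1: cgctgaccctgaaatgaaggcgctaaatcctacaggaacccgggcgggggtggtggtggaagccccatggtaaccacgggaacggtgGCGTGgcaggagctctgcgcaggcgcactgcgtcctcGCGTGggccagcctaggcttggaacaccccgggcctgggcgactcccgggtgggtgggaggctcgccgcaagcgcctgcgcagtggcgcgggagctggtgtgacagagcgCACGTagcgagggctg
Pfkfb3: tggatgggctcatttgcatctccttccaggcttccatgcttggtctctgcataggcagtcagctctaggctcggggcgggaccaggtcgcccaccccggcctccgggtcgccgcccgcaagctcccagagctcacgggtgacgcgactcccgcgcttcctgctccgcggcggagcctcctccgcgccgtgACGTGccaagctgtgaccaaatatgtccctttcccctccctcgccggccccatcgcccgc
Ak4: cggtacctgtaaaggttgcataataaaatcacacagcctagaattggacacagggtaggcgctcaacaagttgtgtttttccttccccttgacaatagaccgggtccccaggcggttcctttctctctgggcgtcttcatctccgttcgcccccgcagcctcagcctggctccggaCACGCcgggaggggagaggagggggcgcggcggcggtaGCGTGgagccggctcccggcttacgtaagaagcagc
Klf9: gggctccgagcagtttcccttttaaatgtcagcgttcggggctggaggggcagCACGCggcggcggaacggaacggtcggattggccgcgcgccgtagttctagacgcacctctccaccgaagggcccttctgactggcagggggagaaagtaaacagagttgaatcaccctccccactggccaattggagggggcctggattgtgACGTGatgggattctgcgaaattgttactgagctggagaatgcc
Suv39h2: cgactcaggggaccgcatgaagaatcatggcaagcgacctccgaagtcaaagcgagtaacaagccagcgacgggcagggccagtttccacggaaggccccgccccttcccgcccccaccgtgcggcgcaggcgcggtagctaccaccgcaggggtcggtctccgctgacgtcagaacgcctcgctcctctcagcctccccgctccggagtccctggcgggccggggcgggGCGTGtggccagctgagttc

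The core, searched as ACGTG and GCGTG on both strands, was found 4 times before Ankrd37, with 1 pair of matches overlapping, 3 times before P4ha1, and 2 times before each of Ddit4, Ak4 and Klf9. Pfkfb3 and Suv39h2 had 1 match each. Such matches were common. Of 8372 genes with signal and a promoter in the table, 58.8% held at least 1 core, against 38.6% of all 27025 genes in the table. Of the 27 HIF-1 targets with signal and a promoter, members or not, 81.5% held at least 1. Among the members with a promoter the share was 55.1% of 49 lower-then-higher genes. Of the higher-then-lower genes it was 64.5% of the 31 genes with at least 1 probe set whose hypoxic signal fell between 0 h and 2 h, and 36.8% of the 38 other genes. The median GC content of these windows moved with the share, at 58.0%, 67.2% and 53.2% in the same order and 60.8% over the genes with signal. The HIF-1 targets did not follow this, with the highest share (81.5%) at a median GC content of 64.0%. The part of GC content in the shares was not tested. CACGTG, a longer motif that contains the core and is bound by clock and Myc family factors, was in 0.8% of the member promoters and in 8.8% of those of genes with signal.

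One array stood apart. Normoxic replicate 2 at 0 h had a summed lens marker signal of 12.40 (log2 of the sum of 12 lens genes), whereas the other 23 arrays lay between 15.44 and 16.99. Lens is not retina, and 7 of the 12 lens markers were themselves members (Cryba4, Crybb1, Crybb3, Crygd, Lim2, Mip and Bfsp1), but the 5 that were not members gave the same picture with 12.13 in that array. Hypoxia minus normoxia, the list's difference was 1.40 at 0 h and -0.18 at 2 h, then -0.23 (4 h) and -0.66 (16 h), and all 12 genes lay above 0 at 0 h and below 0 at 2 h. Across the arrays of a group the summed lens signal ranged from 15.87 to 16.97 in hypoxia and from 12.40 to 16.51 in normoxia at 0 h, and from 16.55 to 16.89 and from 16.84 to 16.99 at 2 h. Markers of the retinal pigment epithelium, of which 8 of 11 had signal and none was a member, were higher in hypoxic arrays in the sum of all 11 by 2.90 at 0 h (9.87 to 10.41 in normoxia, 12.97 to 13.06 in hypoxia), by 0.89 at 2 h and by 0.65 at 4 h, whereas their difference at 16 h was -0.53. The summed signal of 11 rod photoreceptor genes, the main cells of the retina, lay between 16.69 and 16.96 in all 24 arrays, but hypoxic arrays were wholly below normoxic ones at 0 h (-0.10), 2 h (-0.16) and 4 h (-0.07). The same held for the summed bipolar cell markers at 2 h (-0.18) and 4 h (-0.15). At 4 h it also held for those of cones (-0.18) and amacrine cells (-0.12). The summed endothelial markers were wholly below at 0 h, 2 h and 4 h too (-0.30, -0.33 and -0.20). Of these 7 genes 3 had signal, with medians of -0.09, 0.19 and 0.08. Kdr was lower (-0.71, -0.99 and -0.54), whereas Flt1 was higher (0.26, 0.19 and 0.08). The summed fibroblast markers were wholly above at 0 h (0.30). Of these 6 genes 2 had signal, and Pdgfra alone was higher at 0 h (0.63), with the others between -0.24 and -0.04. The part of these cell types and tissues in the members' differences was not tested. The numbers of members and their median 0 h differences are therefore given with and without normoxic replicate 2 at 0 h. Later counts and medians are of the members chosen with that array, unless stated.

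Without that array, 76 of the 121 higher-then-lower and 52 of the 61 lower-then-higher probe sets still met the rule. The median 0 h difference of the higher-then-lower members was 0.80 with the array and 0.47 without it, and that of the lower-then-higher members was -0.52 in both cases. The 76 higher-then-lower probe sets that still met the rule had median differences of -0.26 at 4 h and -0.29 at 16 h. In the 45 that did not, these were -0.44 and -0.89.

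**Figure D1:**
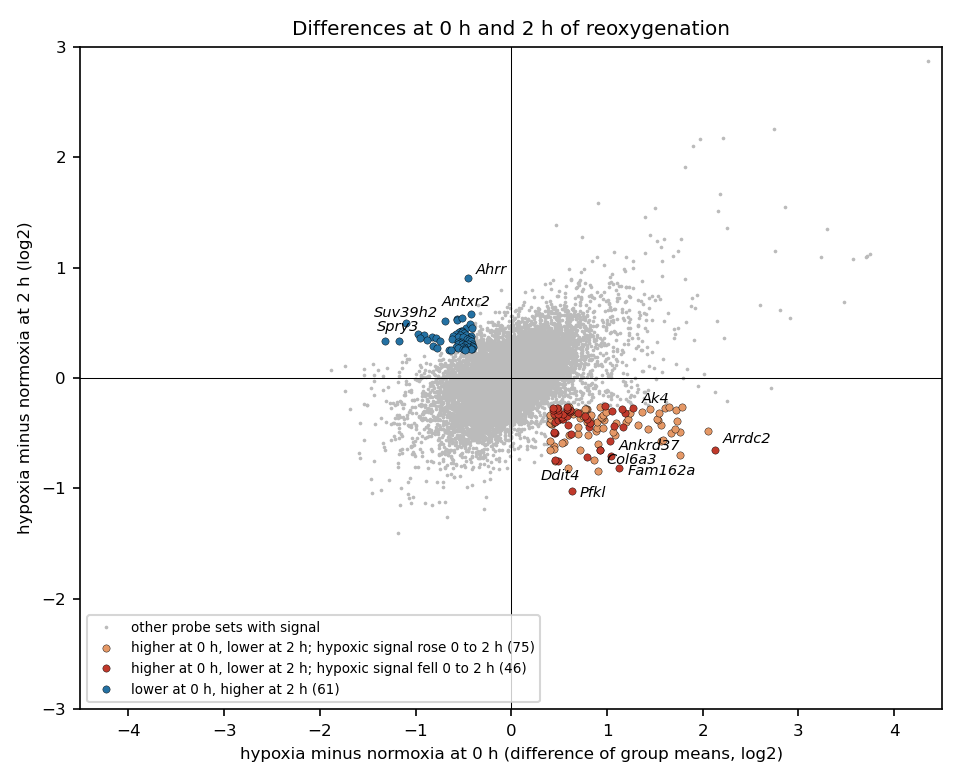
Difference of the hypoxic and normoxic group means (log2) at 0 h on the x axis and at 2 h on the y axis, 1 point per probe set with signal; grey points are no members, red and orange points the 121 higher-then-lower members by the direction of their hypoxic signal between 0 h and 2 h, blue points the 61 lower-then-higher members. Members fill the outer parts of the quadrants with opposite signs, from Spry3 at -1.31 to Arrdc2 at 2.12 on the x axis.

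The higher-then-lower members were of 2 kinds, separated here after their values were seen. In 46 probe sets of 40 genes the hypoxic signal fell between 0 h and 2 h, with a median change of -0.89, while the normoxic signal moved by a median of 0.23. In 75 probe sets of 53 genes the hypoxic signal rose, by a median of 0.34, and the normoxic signal rose by a median of 1.66. Hypoxic signals there did not fall past the normoxic level, which rose past them instead. In 85 of all 121 the normoxic mean moved more than the hypoxic mean. Of the first kind 44 of 46 met the rule without normoxic replicate 2 at 0 h, and of the second 32 of 75. When each of the 12 arrays at 0 h and 2 h was left out in turn, 18 probe sets of the first kind and 3 of the second met the rule every time.

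Ankrd37, a small ankyrin repeat protein and HIF-1 target, had hypoxic signals of 9.82, 9.68 and 9.81 in replicates 1 to 3 and normoxic signals of 8.67, 8.56 and 8.97 at 0 h. At 2 h its hypoxic signals were 8.03, 7.98 and 7.93 and its normoxic signals 8.49, 8.57 and 9.01. Hypoxic retinas thus lay wholly above normoxic ones at 0 h (difference 1.04) and wholly below at 2 h (-0.71), while the normoxic mean moved by -0.04. Ddit4, an inhibitor of the growth kinase mTOR, had hypoxic signals of 10.85, 11.09 and 11.11 against 10.45, 10.50 and 10.65 at 0 h. At 2 h they were 9.87, 8.98 and 9.80 against 9.89, 10.26 and 10.76. The difference went from 0.49 to -0.75 with no overlap at either time point, although at 2 h the highest hypoxic and the lowest normoxic array were close. Bhlhe40, a transcriptional repressor that also acts in the clock, was even between replicates. Its hypoxic signals were 10.46, 10.35 and 10.47 at 0 h and 9.14, 9.22 and 9.29 at 2 h, against normoxic signals of 9.67, 9.62 and 9.54 and then 9.67, 9.57 and 9.63. The groups were apart at both time points, with differences of 0.82 and -0.41.

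P4ha1, the catalytic subunit of the enzyme that hydroxylates collagen prolines, was a member with both of its probe sets, which differed by 0.46 and 0.59 at 0 h and by -0.50 and -0.42 at 2 h. Pfkfb3, which makes the sugar phosphate that activates glycolysis, had hypoxic signals of 8.31, 8.18 and 8.13 against 7.04, 7.10 and 6.92 at 0 h, and of 7.38, 6.94 and 7.19 against 7.50, 7.55 and 7.41 at 2 h. Its difference went from 1.19 to -0.32, and the normoxic mean itself rose by 0.47 between the time points. Ak4, a mitochondrial adenylate kinase, had hypoxic signals of 9.04, 9.38 and 9.24 against 8.26, 7.97 and 7.60 at 0 h, and of 8.64, 7.90 and 8.23 against 8.04, 8.59 and 8.94 at 2 h. Its groups were apart at 0 h (1.28) and overlapped at 2 h (-0.27). The normoxic mean rose between these time points, and the hypoxic mean at 2 h was still above the normoxic mean at 0 h. Both other Ak4 probe sets with signal had the same signs, at 0.92 and 1.40 at 0 h and -0.14 and -0.13 at 2 h. The other Pfkfb3 probe set differed by 1.02 at 0 h but by 0.03 at 2 h.

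**Figure D2:**
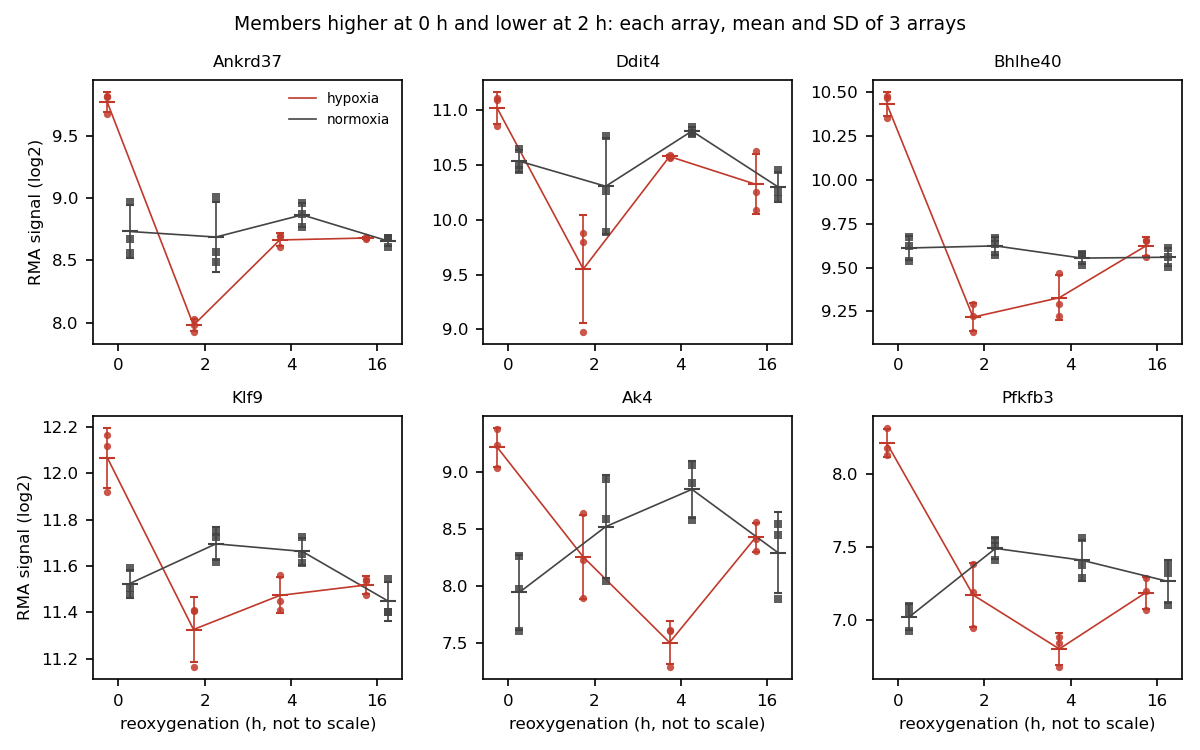
RMA signal (log2) of 6 higher-then-lower members at 0, 2, 4 and 16 h of reoxygenation (evenly spaced, not to scale), with 1 point per array, lines through the means of hypoxic (red circles) and normoxic (grey squares) groups and bars of 1 SD over 3 arrays. The hypoxic means drop from above to below normoxia between 0 h and 2 h, and Ak4 and Pfkfb3 are furthest below at 4 h, by 1.35 and 0.61.

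Other members of the first kind included transcriptional regulators and genes known to be induced by glucocorticoids. That list held 22 genes, of which 19 had signal and 4 were members (Errfi1, Klf9, Arrdc2 and Ddit4). The list as a whole did not cross, with medians of 0.86 at 0 h and 0.17 at 2 h and 5 of 19 genes above 0 and then below, and Fkbp5 (1.24) and Mt2 (2.26) were among the genes still higher in hypoxia at 2 h. Klf9, a Krueppel-like transcription factor, was a member with 6 probe sets, whose differences lay between 0.44 and 0.77 at 0 h and between -0.37 and -0.27 at 2 h. Its hypoxic signals by the probe set with the lowest 2 h difference were 12.12, 11.92 and 12.16 against 11.59, 11.48 and 11.50 at 0 h, and 11.41, 11.16 and 11.41 against 11.62, 11.73 and 11.75 at 2 h. All 6 probe sets had hypoxic arrays wholly above normoxic ones at 0 h and wholly below at 2 h. Arrdc2, an arrestin domain protein, had the largest 0 h difference of all members (2.12), from 8.65, 8.28 and 8.47 in hypoxia and 6.42, 6.47 and 6.15 in normoxia. At 2 h its hypoxic signals were 6.70, 5.60 and 5.93 against 6.88, 7.04 and 6.25, so that the groups overlapped with a difference of -0.65. Errfi1, a feedback inhibitor of the EGF receptor, differed by 0.70 at 0 h and by -0.32 at 2 h with no overlap at either. The same held for Id2, an inhibitor of helix-loop-helix factors (0.82 and -0.44), and for Tnfsf9, a cytokine of the TNF family (1.07 and -0.44). Nfkbiz, a nuclear regulator of NF-kappaB, had hypoxic signals of 9.07, 8.72 and 9.01 against 7.74, 7.95 and 8.02 at 0 h, and of 7.48, 7.68 and 7.47 against 7.61, 8.14 and 8.60 at 2 h. Its groups overlapped at 2 h (-0.57). Tiparp, an enzyme induced by the aryl hydrocarbon receptor, differed by 0.49 and -0.38.

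Some of the largest members rested on 1 probe set that another probe set of the gene did not follow at 2 h. Fam162a, a mitochondrial protein, differed by 1.13 and -0.82 by its member probe set, but by 0.95 and 0.72 by another. By the latter its hypoxic signals at 2 h were 10.78, 11.03 and 10.86 against 9.98, 10.13 and 10.40, wholly above normoxia. Etnppl, which breaks down phosphoethanolamine, differed by 0.93 and -0.65 by its member probe set and by 1.45 and 1.30 by the other, and Epm2a, the glycogen phosphatase laforin, by 0.92 and -0.65 against 0.39 and 0.36. Malat1, a nuclear long non-coding RNA, was higher at 0 h by the member probe set (1.16), whereas all 6 other probe sets gave differences between -1.54 and -0.24. Pfkl, a phosphofructokinase, differed by 0.63 and -1.02 by its member probe set and by 0.27 and 0.28 at 0 h and -0.03 in both cases at 2 h by its other 2. Among the higher-then-lower genes 30 had other probe sets with signal, and 30 of these 46 probe sets had the signs of the member. Among the lower-then-higher genes 26 had others, and 31 of 44 had the same signs.

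Members of the second kind, in which hypoxic signals rose between 0 h and 2 h, included all 7 lens markers among the members. Mip, the water channel of lens fibre cells, had hypoxic signals of 11.43, 10.29 and 9.43 against 9.55, 4.53 and 10.91 at 0 h by the probe set with the larger 0 h difference, with the lowest value in normoxic replicate 2. At 2 h the signals were 10.94, 11.30 and 11.68 against 12.13, 11.62 and 11.60. Its 0 h difference was 2.06 with that replicate and 0.16 without it. Nid1, a basement membrane protein, showed the same array at 5.12 against 8.41 and 8.73 in the other normoxic replicates, and its 0 h difference was 1.59 with it and 0.43 without it. The crystallins, the main proteins of the lens, differed at 0 h by 1.73 (Crygd), 1.60 (Crybb1) and 1.76 (Cryga), and by 1.02, 0.21 and 1.89 without that array. Cryga was high in 1 hypoxic array only at 0 h (9.39, with 5.93 and 5.91 in the others), against at most 5.59 in normoxia.

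Extracellular matrix and membrane proteins were among the others. Col6a3, a collagen chain, went from 0.91 to -0.84, and its 0 h difference was 0.10 without normoxic replicate 2. Ogn, a small matrix proteoglycan, had 2 member probe sets with 0 h differences of 0.86 and 0.91 that became 0.29 and 0.35. For Cd24a, a surface glycoprotein with 3 member probe sets, the 0 h differences of 0.72 to 0.96 became -0.16 to 0.19 without the array. The other genes with several member probe sets were Gsn (4, an actin-severing protein), Sfrp1 (3, a Wnt inhibitor), Tmem40 (3), Wnt7b, Col4a5, Itga6, Fmod, Fabp5, Lgals1, Wls, Ccnd2 and Nupr1 (2 each). Wnt7b and Col4a5 each had 1 probe set of either kind. Gja1, a gap junction protein, had 4 member probe sets that depended less on that array, with 0 h differences of 0.68 to 0.83 that were 0.52 to 0.69 without it. Its other probe set with signal differed by 0.75 at 0 h but by 0.01 at 2 h. Phgdh, the enzyme that starts serine synthesis, had hypoxic signals of 8.77, 8.50 and 8.18 against 7.99, 6.25 and 7.95 at 0 h and of 8.15, 8.85 and 8.68 against 9.21, 9.16 and 8.86 at 2 h. Its groups were apart at both time points, and its 0 h difference was 1.09 with normoxic replicate 2 and 0.51 without it. Nupr1, a stress-induced chromatin protein, differed by 1.54 and 1.52 at 0 h with the array and by 0.42 and 0.46 without it.

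**Figure D3:**
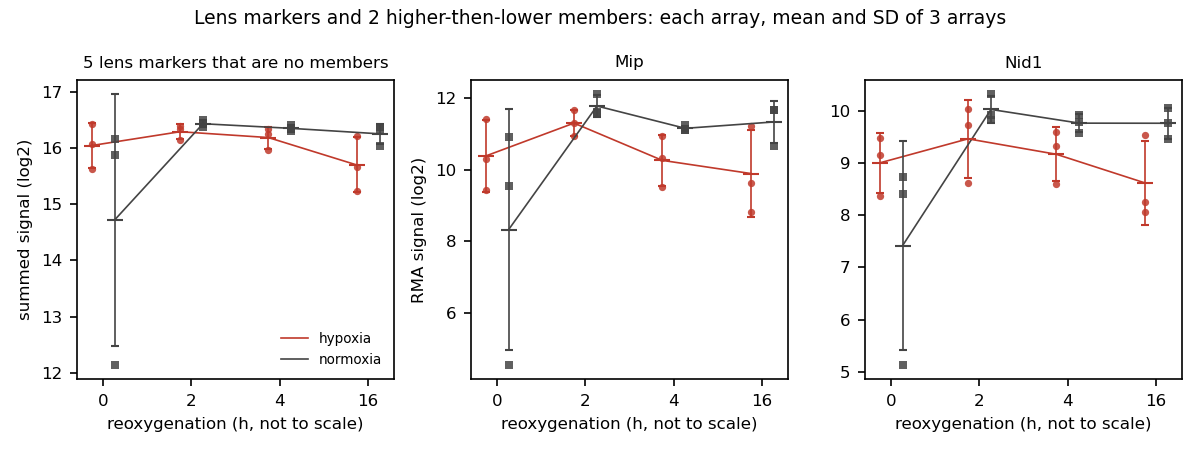
Log2 of the summed signal of the 5 lens markers that are no members (left) and RMA signal (log2) of the members Mip (middle) and Nid1 (right) at 0, 2, 4 and 16 h of reoxygenation (evenly spaced, not to scale), with 1 point per array, lines through group means and bars of 1 SD over 3 arrays. In all 3 panels normoxic replicate 2 at 0 h is the lowest array, at 12.13, 4.53 and 5.12.

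The lower-then-higher members were more even in their moves. The hypoxic signal rose between 0 h and 2 h in all 61 by a median of 0.84, and the normoxic signal moved by a median of -0.07. When each of the 12 arrays at 0 h and 2 h was left out in turn, 20 of the 61 met the rule every time. Without hypoxic replicate 1 at 0 h, 39 lower-then-higher and 92 higher-then-lower probe sets met it. Suv39h2, a histone methyltransferase that makes repressive chromatin marks, had 3 member probe sets with differences of -0.69, -1.10 and -0.96 at 0 h and of 0.52, 0.50 and 0.36 at 2 h. By the probe set with the 0.52 its hypoxic signals were 7.13, 7.47 and 7.55 against 8.11, 7.91 and 8.22 at 0 h, and 8.67, 8.47 and 8.79 against 7.91, 8.18 and 8.29 at 2 h. Hypoxic retinas lay wholly below normoxic ones at first and wholly above them after 2 h. Spry3, a Sprouty inhibitor of growth factor signalling, had the lowest 0 h difference of all members (-1.31), with hypoxic signals of 6.42, 6.02 and 6.46 against 7.64, 7.34 and 7.86. At 2 h they were 7.71, 7.82 and 7.98 against 7.48, 7.35 and 7.68, a difference of 0.33 with no overlap. Ahrr, the repressor of the aryl hydrocarbon receptor, had the highest 2 h difference (0.90), with hypoxic signals of 9.71, 9.35 and 9.15 against 8.63, 8.45 and 8.42 after -0.46 at 0 h. Antxr2, an anthrax toxin receptor that binds basement membrane, went from -0.51 to 0.54, with hypoxic signals of 7.62, 7.53 and 7.54 against 8.03, 7.98 and 8.22 at 0 h and of 8.60, 9.27 and 8.58 against 8.39, 8.41 and 8.02 at 2 h.

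Swt1, an RNA endonuclease, had 2 probe sets at -0.57 and -0.83 at 0 h and at 0.40 and 0.37 at 2 h, with no overlap at either time point. Tmtc3, a mannosyltransferase, had 2 at -0.57 and -0.74 and then 0.54 and 0.34, also with no overlap. Inip, a subunit of a complex that binds single-stranded DNA, had 2 at -0.42 and -0.48 and then 0.34 and 0.30. The RNA A930004D18Rik had 2 at -0.51 and -1.17 and then 0.37 and 0.34. Mettl6, a tRNA methyltransferase, went from -0.57 to 0.52, the splicing factor Crnkl1 from -0.47 to 0.46, the zinc finger protein Zfp84 from -0.52 to 0.43, the apoptosis regulator Bfar from -0.51 to 0.43, the dynein assembly factor Dnaaf2 from -0.43 to 0.49 and the checkpoint clamp subunit Rad1 from -0.43 to 0.58. Of these 6 genes Rad1 alone overlapped at 0 h and none did at 2 h. The other Crnkl1 probe set differed by 0.06 at 0 h and by 0.45 at 2 h.

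**Figure D4:**
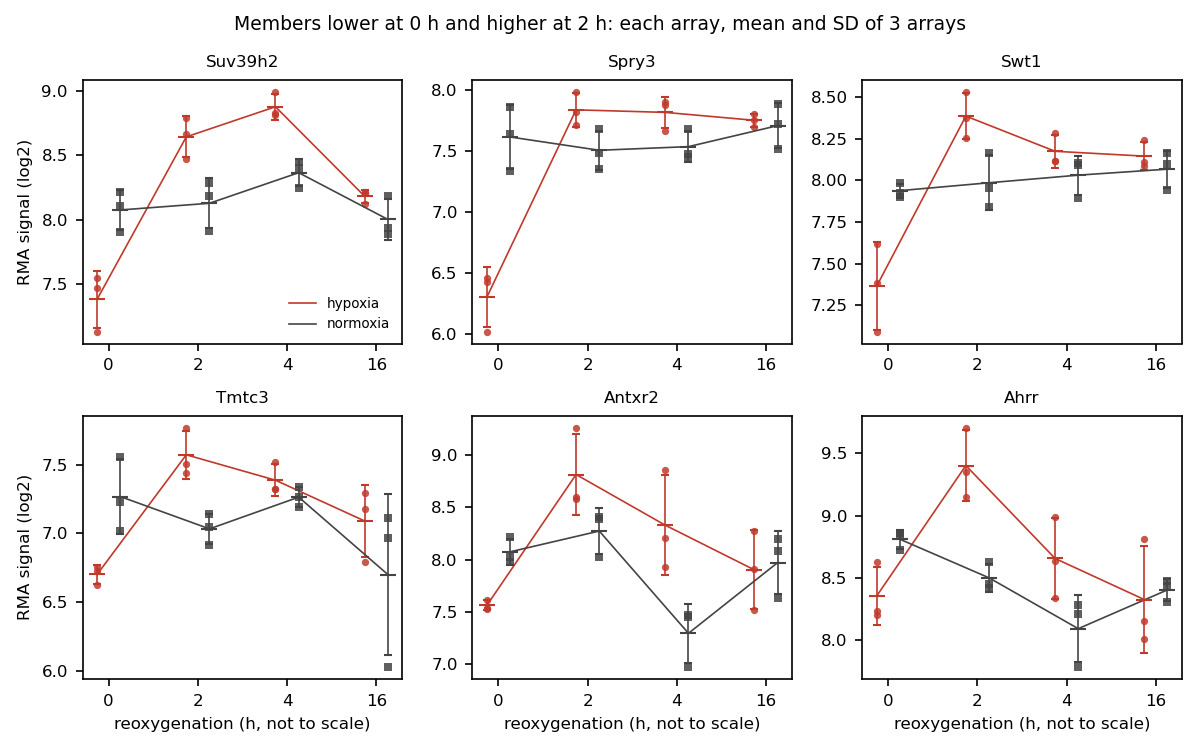
RMA signal (log2) of 6 lower-then-higher members at 0, 2, 4 and 16 h of reoxygenation (evenly spaced, not to scale), with 1 point per array, lines through the means of hypoxic (red circles) and normoxic (grey squares) groups and bars of 1 SD over 3 arrays. Hypoxic arrays are below normoxia at 0 h and above it at 2 h in all 6, and at 4 h Antxr2 is still 1.04 and Suv39h2 0.51 above.

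Not every member was separated from its control group. Of the 121 higher-then-lower probe sets 52 had all hypoxic arrays above all normoxic arrays at 0 h (21.5% of all probe sets with signal did) and 42 had them wholly below at 2 h (14.9%), with 23 probe sets of 18 genes apart at both and 50 at neither. Of these 23, 22 still met the rule without normoxic replicate 2 at 0 h. Of the 61 lower-then-higher probe sets 55 were wholly below at 0 h (23.9% of all) and 51 wholly above at 2 h (19.8%), with 48 probe sets of 45 genes apart at both and 3 at neither. These counts follow from the choice of members. Of 1631 probe sets at least 0.4 higher at 0 h, 7.42% were members, and of 1757 at least 0.4 lower, 3.47%. The limits of the rule cut through a continuous range. Just inside it lay Zw10 (-0.40 and 0.28), Cln8 (-0.63 and 0.25) and Dapl1 (0.40 and -0.57), and just outside Slc25a20 (-0.42 and 0.25), Frg1 (-0.40 and 0.44) and Dusp8 (0.48 and -0.25).

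Whether the sign of the 2 h difference lasted was asked of the 4 h arrays, which had not chosen the members. The median difference at 4 h was -0.34 in the higher-then-lower and 0.14 in the lower-then-higher members, with 0.02 over all probe sets tested. Among the higher-then-lower members it was -0.23 where the hypoxic signal had fallen between 0 h and 2 h and -0.38 where it had risen. Of the higher-then-lower probe sets 117 of 121 were below 0, and 29 had hypoxic arrays wholly below normoxic ones (10.2% of all probe sets with signal at 4 h). Of the 46 whose hypoxic signal had fallen, 21 were wholly below (45.65%), and of the 75 others 8 (10.67%, near the 10.2% of all). The lower-then-higher probe sets were above 0 in 56 of 61 cases, and 22 had hypoxic arrays wholly above (17.1% of all). The lens marker difference at 4 h was -0.23 and that of the pigment epithelium 0.65, and their part in these counts was not tested.

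In a linear model of all 24 arrays (limma), 3 members were lower in hypoxic retinas at 4 h at an adjusted p under 0.05, among 113 higher-then-lower probe sets with signal, and 4 were higher among 59 lower-then-higher ones. Of all 18499 probe sets tested 1.43% changed, 0.876% upwards and 0.551% downwards. Ak4 was lowest, with hypoxic signals of 7.29, 7.61 and 7.61 against 8.58, 9.06 and 8.91 (difference -1.35, SE 0.22, limma adjusted p = 0.00209). Its other 2 probe sets differed by -0.94 and -1.23. From 2 h to 4 h the hypoxic mean of Ak4 had fallen and its normoxic mean had risen. Pfkfb3 had hypoxic signals of 6.67, 6.88 and 6.84 against 7.29, 7.56 and 7.37 (-0.61, SE 0.11, limma adjusted p = 0.00447), though its other probe set differed by -0.04. Both calls held when each of the 6 arrays at 4 h was left out in turn, with limma adjusted p up to 0.0227 and 0.0438. Slc30a1, the zinc exporter of the cell surface, had hypoxic signals of 8.25, 8.82 and 8.50 against 9.27, 9.30 and 9.11 (-0.70, SE 0.15, limma adjusted p = 0.0138), and its call held in 2 of the 6 cases.

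Among the lower-then-higher members Antxr2 had the largest difference at 4 h (1.04, SE 0.22, limma adjusted p = 0.0186). Its hypoxic signals were 8.86, 8.20 and 7.93 against 7.47, 7.45 and 6.97. Both group means were lower than at 2 h, the normoxic one by more. The call held in 4 of 6 cases and was lost without hypoxic replicate 1 (0.169) or normoxic replicate 3 (0.119). Suv39h2 was higher by 2 of its 3 probe sets (0.51, SE 0.12, and 0.49, SE 0.11), both with a limma adjusted p of 0.0324. By the first its signals were 8.82, 8.81 and 8.99 against 8.25, 8.45 and 8.40. Eri1, an exonuclease that trims histone mRNA, differed by 0.43 (SE 0.11, limma adjusted p = 0.049), from 7.31, 7.51 and 7.25 against 6.93, 7.03 and 6.81. Leaving out any 1 of the 6 arrays ended the calls of Eri1 and Suv39h2, except that of the latter Suv39h2 probe set without normoxic replicate 2 (limma adjusted p = 0.0418). With the 6 arrays of 4 h alone in the model, Ak4 alone stayed below 0.05 (limma adjusted p = 0.0112). Ankrd37 (-0.20), Ddit4 (-0.23) and Bhlhe40 (-0.23) had hypoxic arrays wholly below normoxia at 4 h but did not pass the test, with limma adjusted p of 0.393, 0.617 and 0.143.

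At 16 h limma called 0 members and 0% of the 18425 probe sets tested, with 0.77 as the smallest adjusted p of a member, and the methods' t-test called 0 as well. At an unadjusted p under 0.05 there were 41 of 109 higher-then-lower and 4 of 61 lower-then-higher probe sets, beside 6.37% of all probe sets tested. Members of the first kind had returned to a median of 0.02, with 1 probe set wholly below normoxia and Arrdc2 wholly above. Members of the second kind had a median of -0.83, and 18 of 75 were wholly below, which with that 1 gives 19 of 121 higher-then-lower probe sets (4.18% of all). At 16 h the 5 lens markers that were no members had summed signals of 15.23 to 16.20 in hypoxia against 16.04 to 16.37 in normoxia. The summed markers of the pigment epithelium (-0.53) and of fibroblasts (-0.21) were also lower on average, and the part of these tissues in the members' 16 h differences was not tested. The lower-then-higher members had a median of 0.08, and 6 of 61 were wholly above normoxia (6.88% of all).

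**Figure D5:**
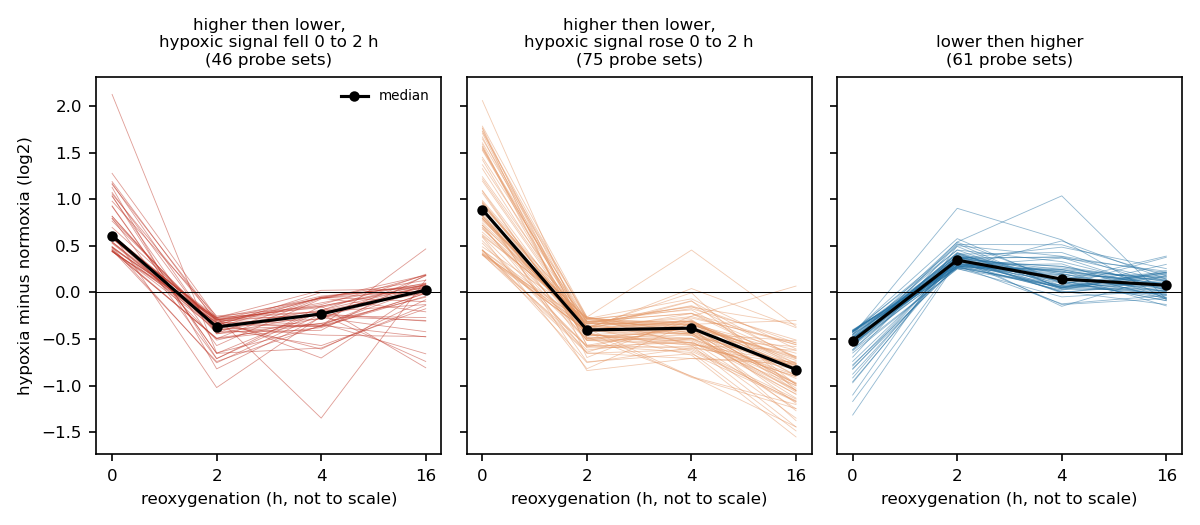
Difference of hypoxic and normoxic group means (log2) at 0, 2, 4 and 16 h of reoxygenation (evenly spaced, not to scale), 1 thin line per member probe set and the median in black, for the 46 higher-then-lower members whose hypoxic signal fell between 0 h and 2 h (left), the 75 in which it rose (middle) and the 61 lower-then-higher members (right). The medians at 16 h are 0.02, -0.83 and 0.08.

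The change of the hypoxia effect between 4 h and 16 h was tested directly, and 0 members passed, with 0.122% of 18823 probe sets passing in all and 8 higher-then-lower and 6 lower-then-higher members at an unadjusted p under 0.05, of 113 and 61 tested, beside 8.06% of all. Ak4 came closest, with an effect lower by 1.48 at 4 h than at 16 h (SE 0.31, limma adjusted p = 0.0604). Control retinas moved too. Between 4 h and 16 h of the normoxic series 6 higher-then-lower probe sets were lower at 16 h (2.38% of all 18480 tested) and 2 lower-then-higher ones were higher (1.73% of all, 4.11% in either direction). The former were Arl15, a small GTPase (-0.97), P4ha1 (-0.86 by 1 of its 2 probe sets), Klf9 (-0.56 and -0.54 by 2 of its 6), Nfkbiz (-0.74) and Etnppl (-1.05), and the latter Bfar (0.38) and Asrgl1, an asparaginase (0.41), with limma adjusted p between 0.0113 and 0.0465. Normoxic replicate 3 at 16 h was the highest of its group in 51.8% of all probe sets with signal. Without it and normoxic replicate 2 at 0 h, of these 8 only 1 Klf9 probe set still passed (limma adjusted p = 0.0442). The loss was not particular to these arrays. Without normoxic replicate 1, 2 or 3 at 4 h alone, 3, 1 and 2 of the 8 still passed. Without replicate 1, 2 or 3 at 16 h alone, 4, 6 and 2 did.

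Of all genes with signal 1.42% were members, and the lists of pathways are described by their counts beside that share. Of the lists of glycolysis (25 genes, 22 with signal) and of the unfolded protein and amino acid response (29 and 28), 2 genes each were members, Pfkl and Pfkfb3 in the former and Phgdh and Nupr1 in the latter. The cell cycle list held Ccnd2, a cyclin of the early cycle, whose 2 probe sets differed by 0.46 and 0.42 at 0 h and by -0.75 and -0.37 at 2 h. The clock list held Bhlhe40. The lists of HIF subunits and hydroxylases, heat shock response, immediate early genes, cholesterol synthesis, splicing factors, the respiratory chain and ion channels held 0 members. The HIF-1 target list as a whole had a median difference of 0.75 at 0 h and of 0.04 at 2 h, and 12 of its 32 genes with signal lay above 0 and then below 0. At 4 h, 2 of its 29 tested genes were lower and 0 higher by limma, and both, Ak4 and Pfkfb3, were members.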

How the data were processed

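RNA of pooled retinas was hybridised to Affymetrix mouse whole-genome arrays. Signals were deposited on the log2 scale after RMA by the authors (background correction, normalization across arrays and 1 summary value per probe set). Its version is not given in the sources used here. GCRMA values, on which the study's own lists rest, were not used here. Array medians lay between 5.79 and 5.83, and the number of arrays limits the precision. No 2 arrays were copies (highest correlation 0.997).

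Of 45101 probe sets 64 controls were left out. The array annotation gave 34945 probe sets 1 gene symbol, 932 several and 9160 none, and 34741 of the former matched RefSeq by gene identifier. Members, gene lists and named genes were chosen with earlier results of these data known. Named are the members with the largest smaller difference (up to 10 per direction), those past the threshold at 4 h, genes with several member probe sets, members of pathway lists and those at the edge of the rule. Others named were chosen after their values were seen.

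The test was limma 3.58.1 in R 4.3.3, with 1 mean per group over all 24 arrays, moderated spread and Benjamini-Hochberg adjustment over all probe sets with a group mean of at least 6.69 in either group compared, the minimum between the density peaks at 3.81 and 7.90. Scripts were tested on simulated data. Lists are represented by 1 probe set per gene. Replicate numbers were not used to pair the samples. Arrays with 1 number deviated together (correlation above 0.1) in 2 of 12 pairs, which gives no evidence of pairing but cannot exclude it. Alternatives were other signal filters, normalizations and spread estimates, array weights, a replicate block, the contrast's arrays alone, the methods' t-test, an adjusted p under 0.1, other limits of the rule, and leaving out each array. Leaving out normoxic replicate 2 at 0 h and replicate 3 at 16 h together was added after seeing the data.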

Additional observations from a re-analysis of the deposited data

Results flagged for a closer look

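The hypoxic arrays lay wholly on one side of the normoxic arrays at 0 h and wholly on the other at 2 h in 23 higher-then-lower and 48 lower-then-higher probe sets. The members were chosen for opposite differences at these time points, so this follows from the choice, and the difference between the time points was not tested.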

How the results depend on the processing

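The number of member probe sets was 182, 73 with both differences at least 0.4, 354 with limits of 0.3 and 0.2, and 131 to 234 when 1 array of 0 h or 2 h was left out. The 7 members changed at 4 h were 4 with no signal filter, 11 with a trended and robust spread, with array quality weights or with an adjusted p under 0.1, 1 with the arrays of the contrast alone, 0 by the methods' t-test, and 2 to 4 with 1 array left out. The 8 members changed between normoxic 4 h and 16 h were 5 with no signal filter, 13 with a trended and robust spread, 15 with an adjusted p under 0.1, 0 with the arrays of the contrast alone and by the methods' t-test, 1 to 8 with 1 array left out, and 1 without normoxic replicate 2 at 0 h and replicate 3 at 16 h together. The 0 members whose hypoxia effect differed between 4 h and 16 h became 1 with the signal threshold raised by 1, with quantile normalization, with array quality weights and with an adjusted p under 0.1. The cause of these moves was not tested. A replicate block, with no evidence of pairing, gave 9 members at 4 h, 0 at 16 h, 0 for the difference of effects and 12 between the normoxic groups, and changed no other call. At 16 h 0 members were called under all alternatives run. The median 4 h difference of the higher-then-lower members lay between -0.50 and -0.22, and that of the lower-then-higher members between 0.12 and 0.17, with 1 array left out. The signal threshold kept 8 of the 121 higher-then-lower probe sets out of the test at 4 h and 12 at 16 h, and 3 arrays per group limit what could be detected.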
